A study of Homo sapiens with 18 samples.

Results

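CDKN1A and 8 other genes known as transcriptional targets of the tumour suppressor p53 were followed across a dose series of oxidized low-density lipoprotein (oxLDL): MDM2, PLK2, TNFRSF10B, FAS, AEN, BAX, TP53I3 and GDF15. They were taken by gene symbol, and all 9 are among the 13992 genes of the deposited expression table. The cells were HMC3, an immortalized human line labelled as microglial and wild type, in 18 RNA libraries. There were 3 libraries at each of 6 doses of oxLDL (0, 1, 2.5, 10, 50 and 100 µg/ml), all harvested after 24 h, and the 0 µg/ml libraries serve as controls for every dose. HMC3 was immortalized with the SV40 large T antigen, a viral protein that binds p53, and whether it is expressed in these libraries was not measured here.

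p53 is a transcription factor that is held at a low level by MDM2, a ubiquitin ligase that marks it for destruction and is itself made from a p53 target gene. Under stress the p53 protein accumulates and binds a pair of short half-sites near its target genes. These genes then stop the cell cycle, lower the threshold for cell death or feed back on p53. Most of them also respond to other transcription factors, so that their mRNA alone does not read out p53.

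Promoter sequences are shown first because MDM2 and AEN carry a p53 half-site pair close to a start of transcription. PLK2 carries a lone half-site and CDKN1A neither, within the same distance of the 1 start searched for each. RefSeq windows of 300 bases (GRCh38.p14, from 250 bases before a start to 50 after it) were available for 8 of the 9 genes, in 13 windows. TNFRSF10B was the exception. A p53 half-site of 10 bases was searched by its usual consensus, which reads the same on both strands. A pair was 2 half-sites no more than 13 bases apart, with the central C and G kept and at most 2 mismatches in all. Such a pair lies in 2.93% of all 35116 windows, and an exact single half-site in 6.63%. In the lines below capitals mark the p53 half-sites of MDM2, AEN and PLK2 and, in CDKN1A, the GC box (GGGCGG, searched on both strands), which is present in 45.0% of windows. Each line runs 5′ to 3′ on the strand of the gene.
MDM2, chr12:68808774-68809001 strand +: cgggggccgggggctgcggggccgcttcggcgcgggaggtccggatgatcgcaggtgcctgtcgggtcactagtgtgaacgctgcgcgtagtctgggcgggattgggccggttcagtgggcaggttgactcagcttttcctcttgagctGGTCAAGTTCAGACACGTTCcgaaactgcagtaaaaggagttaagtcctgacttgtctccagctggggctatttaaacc
AEN, chr15:88621301-88621330 strand +: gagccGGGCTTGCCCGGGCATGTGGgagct
PLK2, chr5:58460199-58460228 strand -: tggcgggacaAGACTTGCTTcccggccacg
CDKN1A, chr6:36678464-36678657 strand +: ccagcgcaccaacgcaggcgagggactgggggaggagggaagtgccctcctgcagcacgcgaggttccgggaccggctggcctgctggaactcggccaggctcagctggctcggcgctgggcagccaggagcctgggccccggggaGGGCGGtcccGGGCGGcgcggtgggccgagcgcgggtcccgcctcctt
The MDM2 pair begins 101 bases before an internal start of the gene and has no spacer. The AEN pair begins 34 bases before the RefSeq start, which is likewise internal to the gene as GENCODE draws it, also without a spacer, and 1 of its half-sites is exact. In PLK2 1 exact half-site begins 132 bases before the start. The third gene with a pair was FAS, 122 bases before an internal start. A match is a description of the letters and does not show that p53 was bound. The 1 window of CDKN1A also lies at an internal start, since the gene begins at 36676463, and no window at that upstream end was searched. The p53 sites known for CDKN1A lie further upstream than this window.

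Values are FPKM, the fragments of a gene scaled by its length and by the library total, and are given as mean ± SD of 3 libraries. Differences are log2 fold changes of FPKM + 0.5 from limma, with the standard error (SE), a two-sided test and Benjamini-Hochberg adjustment over all 12127 genes tested. Adjusted p-values under 0.05 count as calls. Counts recovered from the steps of the FPKM values, called reads here, summed over the 13992 listed genes to 13902719 to 37338597 per library. Reads outside these genes are not in this sum. Nothing in the labels ties the 3 libraries of a dose to separate cultures, and p-values therefore measure a spread between libraries that may be technical only. In bulk RNA fewer cells expressing a gene and less RNA per cell cannot be told apart. The named library kit does not mark strand, so reads of a gene and of an overlapping gene on the opposite strand cannot be told apart. As a check of the line, 1 of 11 microglial markers, CD68, was among the listed genes, and the defining markers AIF1, ITGAM, CX3CR1, P2RY12, TMEM119, CSF1R, PTPRC, TREM2, SPI1 and TYROBP were not. Of 10 fibroblast and pericyte markers 7 were listed, with a summed FPKM of 715.3 to 781.3 at 0 µg/ml and 525.5 to 593.3 at 100 µg/ml, where COL1A1, PDGFRB and THY1 had fallen. At 0 µg/ml most of this sum came from COL1A1 (mean 495.8), TAGLN (137.0) and THY1 (96.5). COL1A2 (0.92) and ACTA2 (0.52) were low, and COL3A1, DCN and LUM were not listed. The listed astrocyte markers (2 of 6) summed to 1.87 to 2.13 at 0 and 1.76 to 2.02 at 100 µg/ml, and the neuronal ones (4 of 6) to 32.6 to 33.8 and 27.4 to 29.8. Nearly all of the neuronal sum came from TUBB3 (mean 31.6 at 0 µg/ml), with SYP at 0.46 and SYT1 at 0.02. CD68, the listed microglial marker, was at 11.9 to 12.4 FPKM at 0 and 14.3 to 15.7 at 100 µg/ml. The part of these shifts in the results on p53 targets was not tested.

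At 100 µg/ml CDKN1A, MDM2, TNFRSF10B, AEN and BAX rose against 0 µg/ml while PLK2 and TP53I3 fell. These were 7 of the 8 target genes that could be tested, in a comparison that called 15.5% of all genes (7.94% up and 7.51% down). The changes were modest, from 10.7% lower to 40.6% higher in mean FPKM apart from PLK2, which was 28.1% lower. At 50 µg/ml 6 were called against a background of 7.47% (3.78% up and 3.69% down): CDKN1A, MDM2, TNFRSF10B and AEN up, PLK2 and TP53I3 down. At 10 µg/ml limma called 0 of the 8 (background 0.0412%), with MDM2 and TP53I3 at an unadjusted p under 0.05 (9.77% of all genes), and limma-voom also called 0. At 1 and 2.5 µg/ml limma called 0 (background 0.0% at both doses), limma-voom called 0, and 0 of the 8 had an unadjusted p under 0.05, where 3.01% and 4.38% of all genes did. The median fold of the 8 at 100 µg/ml was 0.22, beside -0.0037 for all genes tested. All 3 libraries at 100 µg/ml were above all 3 at 0 for 5 of the 8 and below for 2, where 16.5% and 16.9% of all genes did so. The comparisons share the 0 µg/ml libraries and are not independent of each other.

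**Figure D1:**
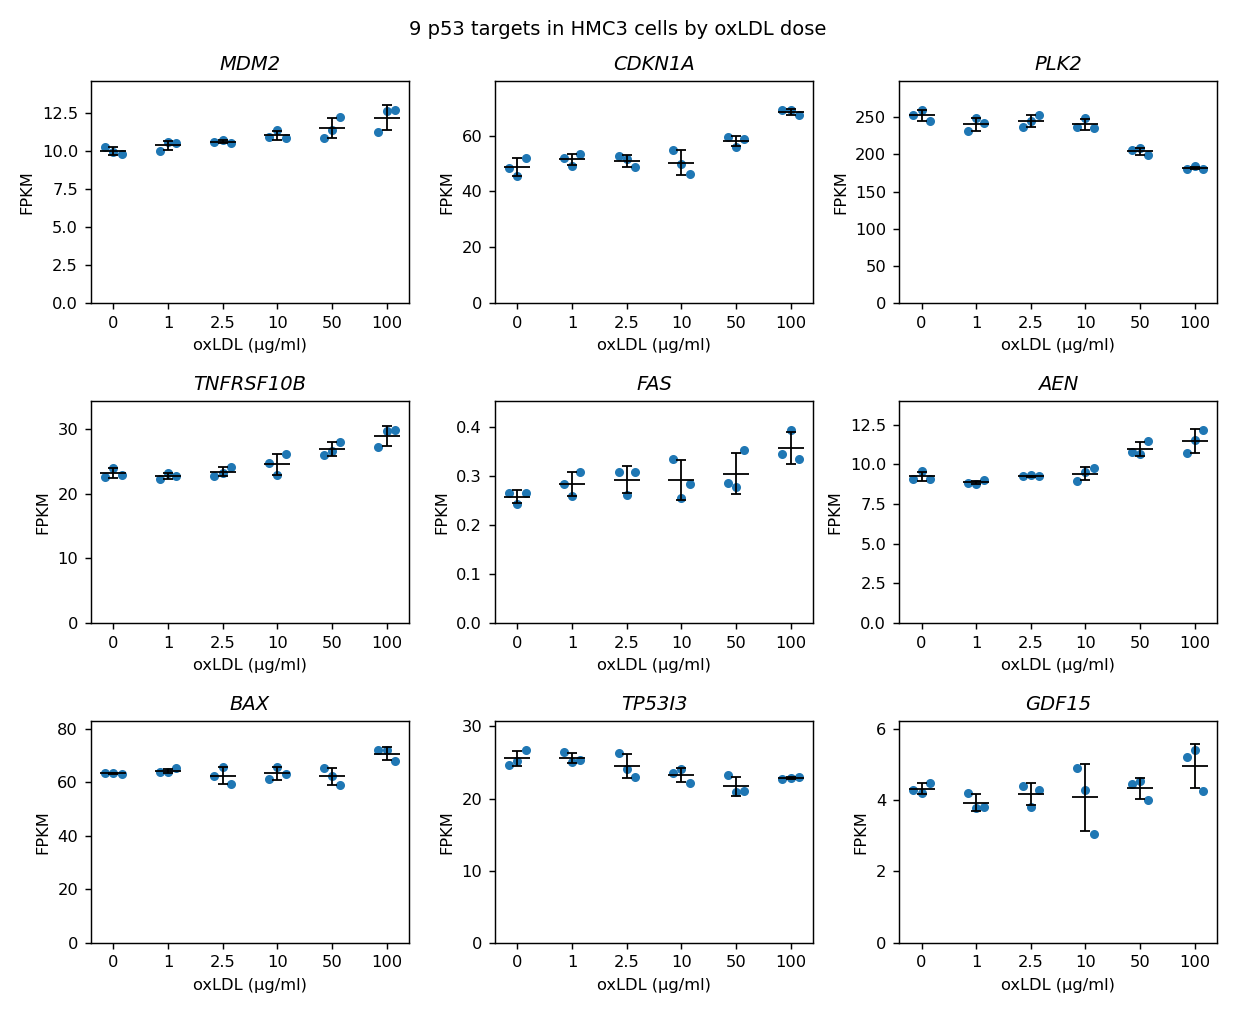
FPKM of the 9 target genes (vertical axes, each from 0) against the oxLDL dose in µg/ml (horizontal axes, doses evenly spaced); points are single libraries, 3 per dose, long bars the mean and error bars 1 SD. CDKN1A climbs from a mean of 48.7 at 0 to 68.5 FPKM at 100 µg/ml while PLK2 descends from 252.5 to 181.7 FPKM.

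**Figure D2:**
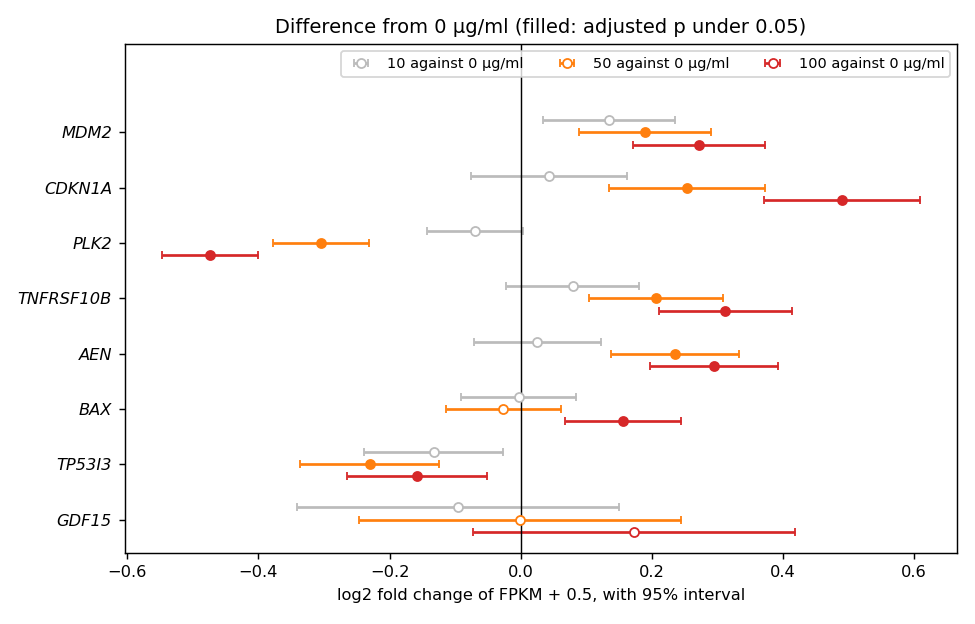
Log2 fold change of FPKM + 0.5 against 0 µg/ml (horizontal axis) for the 8 tested targets (rows), with the unadjusted 95% interval; grey is 10, orange 50 and red 100 µg/ml, and filled points are genes called at an adjusted p under 0.05. At 100 µg/ml CDKN1A (0.49) and PLK2 (-0.47) lie farthest from 0 on opposite sides.

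MDM2 (hg38 chromosome 12, 68808172 to 68850686, plus strand), the ubiquitin ligase that closes the feedback loop on p53, rose at both high doses. The controls were at 10.3, 9.94 and 9.80 FPKM, the 1 µg/ml libraries at 10.0, 10.6 and 10.5 and the 2.5 µg/ml libraries at 10.6, 10.7 and 10.5. The 10 µg/ml libraries reached 10.9, 11.4 and 10.8, the 50 µg/ml libraries 10.9, 11.4 and 12.2 and the 100 µg/ml libraries 11.3, 12.6 and 12.7 FPKM. From 2.5 µg/ml on, every library was above all 3 controls, and the libraries at 10, 50 and 100 µg/ml overlapped one another. The fold was 0.27 at 100 µg/ml (SE 0.0476, adjusted p = 0.000876) and 0.19 at 50 µg/ml (adjusted p = 0.0227). The latter call was lost in 5 of 28 settings, with adjusted p up to 0.122 when the third 50 µg/ml library was left out. CPM, which overlaps MDM2 on the opposite strand, was at 0.44 ± 0.06 and 0.40 ± 0.02 FPKM, below the filter on low values.

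Of 19 tested regulators of p53, MDM2 among them, 2 were called up at 100 µg/ml and 0 down, near the shares of all genes (7.94% up and 7.51% down). The other was HIPK2, a kinase that phosphorylates p53 (fold 0.20, adjusted p = 0.0393), a call lost in 8 of 28 settings. MDM4, the relative of MDM2 that masks the activation domain of p53, had a fold of -0.02 (adjusted p = 0.894). ATM, a kinase that signals DNA breaks to p53, had a fold of 0.0024 (adjusted p = 0.988). The median fold of the list was 0.0024, beside -0.0037 for all genes. These are transcript levels, and p53 protein was not measured.

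CDKN1A (chromosome 6, 36676463 to 36687332, plus strand) encodes p21, which binds cyclin-dependent kinases and holds cells before S phase. Its exons overlap the long non-coding gene DINOL, which is not analysed here. The controls were at 48.5, 45.7 and 52.0 FPKM, the 1 µg/ml libraries at 51.9, 49.3 and 53.3 and the 2.5 µg/ml libraries at 52.7, 51.6 and 48.7. The 10 µg/ml libraries were at 55.0, 49.8 and 46.1, the 50 µg/ml libraries at 59.5, 56.1 and 58.8 and the 100 µg/ml libraries at 69.2, 69.1 and 67.4 FPKM. The 4 lower doses overlapped throughout, all libraries at 50 µg/ml were above all of these, and all at 100 µg/ml were above all at 50. Mean FPKM was 19.3% higher at 50 µg/ml (fold 0.25, SE 0.0562, adjusted p = 0.0109) and 40.6% higher at 100 µg/ml (fold 0.49, SE 0.0562, 95% interval 0.37 to 0.61, adjusted p = 1.73e-05). The call at 50 µg/ml was lost without replicate 2 of 0 µg/ml (adjusted p = 0.0551). That at 100 µg/ml held in all 28 settings, with adjusted p up to 0.000496.

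PLK2 (chromosome 5, 58453982 to 58460086, minus strand), a polo-like kinase with roles in the cell cycle and at synapses, went the other way. In FPKM, a level per length, it was the highest of the 9 genes. The controls were at 253.1, 259.7 and 244.7 FPKM, the 1 µg/ml libraries at 231.3, 248.3 and 241.6 and the 2.5 µg/ml libraries at 236.2, 245.1 and 252.5. The 10 µg/ml libraries were at 237.3, 249.1 and 235.4, the 50 µg/ml libraries at 205.3, 208.2 and 199.3 and the 100 µg/ml libraries at 180.7, 183.9 and 180.4 FPKM. As for CDKN1A the 4 lower doses overlapped, and the 50 and 100 µg/ml libraries formed separate steps, here downward. The fold was -0.30 at 50 µg/ml (SE 0.0344, adjusted p = 3.58e-05) and -0.47 at 100 µg/ml (adjusted p = 6.67e-08), and both calls held in all 28 settings.

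The CDKN1A to PLK2 ratio, per library and in FPKM, brings both changes into 1 value. It was 0.193 ± 0.019 at 0, 0.215 ± 0.014 at 1, 0.209 ± 0.015 at 2.5 and 0.209 ± 0.020 at 10 µg/ml. It then rose to 0.285 ± 0.014 at 50 µg/ml (0.269 to 0.295) and to 0.377 ± 0.005 at 100 µg/ml (0.373 to 0.383). The highest value at the 4 lower doses was 0.232.

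**Figure D3:**
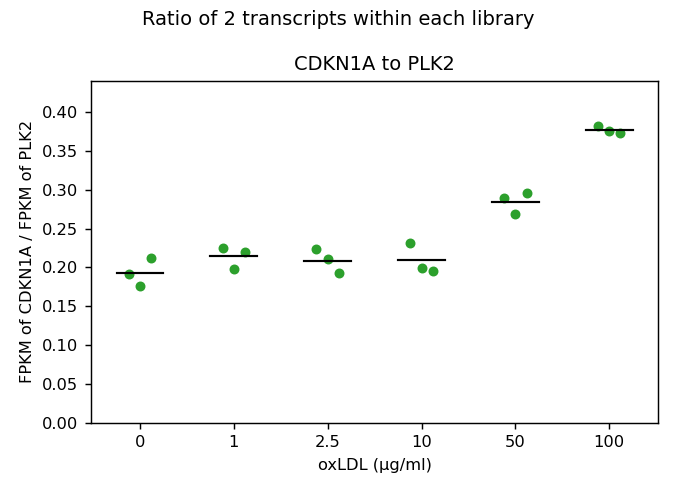
Ratio of FPKM of CDKN1A to PLK2 (vertical axis, from 0) against the oxLDL dose in µg/ml (horizontal axis, doses evenly spaced), with 3 libraries per dose as points and the mean as a bar. The ratio lies between 0.373 and 0.383 at 100 µg/ml, above every library at 50 µg/ml.

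Besides CDKN1A and PLK2, 11 p53 targets with roles in arrest and growth were tested, and 4 were called up and 1 down at 100 µg/ml, where 7.94% and 7.51% of all genes were. Their median fold was 0.12 beside -0.0037 for all genes. Those called up were PLK3, a relative of PLK2 (4.39 ± 0.48 to 6.04 ± 0.03 FPKM, fold 0.42, SE 0.0703, adjusted p = 0.000567), GADD45A, a stress sensor that binds PCNA (fold 0.19, adjusted p = 0.00949), ZMAT3 (fold 0.26, adjusted p = 0.0138) and PHLDA3 (fold 0.21, adjusted p = 0.0393). The PHLDA3 call was lost in 10 of 28 settings and that of ZMAT3 in 2. CCNG2, an unconventional cyclin of resting cells, was called down (fold -0.19, adjusted p = 0.0169, lost in 2 settings). BTG2, an antiproliferative factor, was at 4.27 ± 0.27 and 4.87 ± 0.37 FPKM (fold 0.17, adjusted p = 0.0943). At 50 µg/ml CDKN1A and PLK2 were called and 0 of these 11. Over all 13, CDKN1A and PLK2 included, 8 folds at 100 µg/ml were above 0 and 5 below. Among the latter was SFN (-0.27, adjusted p = 0.176).

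Within the family of cyclin-dependent kinase inhibitors CDKN1A was the only one of 7 called up at 100 µg/ml. CDKN2B (p15), an inhibitor of CDK4 and CDK6, fell from 9.98 ± 0.39 to 6.29 ± 0.73 FPKM at the top dose (fold -0.63, SE 0.0979, adjusted p = 0.000314). CDKN1B (p27) fell from 31.9 ± 0.79 to 27.1 ± 1.1 FPKM (fold -0.23, adjusted p = 0.00266). The remaining inhibitors CDKN1C (-0.34, adjusted p = 0.0503), CDKN2A (-0.12, adjusted p = 0.174), CDKN2C (-0.16, adjusted p = 0.0872) and CDKN2D (0.09, adjusted p = 0.531) were not called, and CDKN1C was called in 10 of 27 settings. CDKN2A overlaps CDKN2B-AS1 on the opposite strand. Among 16 tested partners of CDKN1A (cyclins, their kinases, PCNA and the RB and E2F proteins) 2 were called up and 1 down, where 7.94% and 7.51% of all genes were. CCND1 (122.6 ± 2.1 to 156.0 ± 10.2 FPKM, fold 0.34, adjusted p = 0.00522) and CCND3 (fold 0.14, adjusted p = 0.00218) rose. CCNB1 fell by 0.10 on the log2 scale (adjusted p = 0.0197, lost in 5 settings), and CDK2 and CDK4 had folds of -0.02 and -0.01. CCND1 overlaps LTO1 on the opposite strand.

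TNFRSF10B (chromosome 8, 23020133 to 23069031, minus strand) encodes a receptor for the death ligand TRAIL. Control libraries were at 22.7, 24.1 and 23.0 FPKM, the 10 µg/ml libraries at 24.7, 23.0 and 26.1, the 50 µg/ml libraries at 26.0, 26.6 and 28.1 and the 100 µg/ml libraries at 27.2, 29.8 and 29.9. Values at 1 and 2.5 µg/ml lay between 22.3 and 24.2. The ranges of neighbouring doses overlapped at every step, but both high doses were wholly above 0. The fold was 0.31 at 100 µg/ml (SE 0.0481, adjusted p = 0.000301) and 0.21 at 50 µg/ml (adjusted p = 0.0153, lost in 3 settings with adjusted p up to 0.0803). RHOBTB2, which overlaps it from the opposite strand, was at 3.79 ± 0.26 and 3.99 ± 0.20 FPKM (fold 0.06, adjusted p = 0.596).

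FAS (chromosome 10, 88964050 to 89017059, plus strand), the other death receptor, was expressed at a low level, and its exons overlap those of ACTA2 on the opposite strand. It had 70 to 244 reads per library and fell under the filter on low values (FPKM of at least 0.5 in 3 libraries). In controls FPKM was 0.26, 0.24 and 0.27, at 50 µg/ml it was 0.28, 0.28 and 0.35, and the 100 µg/ml libraries were at 0.34, 0.39 and 0.33, with 0.26 to 0.33 at the doses in between. All 3 at 100 µg/ml were above all 3 at 0, and the range at 50 overlapped that at 100. With no filter on low values the fold at 100 µg/ml was 0.18 (SE 0.0528, adjusted p = 0.0355). ACTA2 was at 0.52 ± 0.08 and 0.53 ± 0.16 FPKM.

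In the death receptor pathway 9 of 12 listed genes were tested, 3 were called up at 100 µg/ml and 0 down (all genes: 7.94% up and 7.51% down), with a median fold of 0.08. FASLG, TNFSF10 and TNFRSF10C were not among the listed symbols. TNFRSF10D, a decoy receptor for TRAIL that does not pass on the death signal, rose from 31.3 ± 0.20 to 40.7 ± 2.5 FPKM (fold 0.37, SE 0.0506, adjusted p = 9.55e-05). TNFRSF11B, a soluble decoy known as osteoprotegerin, had a fold of 0.31 (adjusted p = 0.036, lost in 6 settings) at about 1 FPKM. The third was TNFRSF10B itself. CASP8, the caspase activated at these receptors, had a fold of 0.08 (adjusted p = 0.401). Of the 9 folds 7 were above 0 and 2 below, with RIPK1 (-0.11, adjusted p = 0.133) among the latter.

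AEN (chromosome 15, 88604683 to 88632281, plus strand), a nuclease that acts in apoptosis, rose at both high doses. Control libraries were at 9.09, 9.57 and 9.06 FPKM, the 10 µg/ml libraries at 8.96, 9.49 and 9.79, the 50 µg/ml libraries at 10.8, 10.7 and 11.5 and the 100 µg/ml libraries at 10.7, 11.5 and 12.2. At 1 and 2.5 µg/ml they lay at 8.76 to 9.29. The libraries at 50 µg/ml were above all at lower doses and overlapped those at 100. The fold was 0.24 at 50 µg/ml (SE 0.046, adjusted p = 0.005) and 0.29 at 100 µg/ml (adjusted p = 0.000337), and both calls held in all 28 settings.

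BAX (chromosome 19, 48954875 to 48961798, plus strand), which opens the outer mitochondrial membrane in apoptosis, was called at 100 µg/ml and at no lower dose. The controls were at 63.3, 63.6 and 63.2 FPKM, the 1 µg/ml libraries at 63.7, 63.7 and 65.3 and the 2.5 µg/ml libraries at 62.3, 65.6 and 59.2. The 10 µg/ml libraries were at 61.0, 65.8 and 63.0, the 50 µg/ml libraries at 65.5, 62.2 and 59.1 and the 100 µg/ml libraries at 72.2, 71.9 and 67.9 FPKM. All at 100 µg/ml were above every other library. The fold was 0.16 at 100 µg/ml (SE 0.0416, adjusted p = 0.0168) and -0.03 at 50 µg/ml (adjusted p = 0.768). The call was lost without replicate 1 of 0 µg/ml (adjusted p = 0.0515) and without replicate 1 or 2 of 100 µg/ml (adjusted p = 0.0649 and 0.0616).

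TP53I3 (chromosome 2, 24077433 to 24084834, minus strand), a quinone oxidoreductase-like enzyme, fell. Untreated libraries were at 24.7, 25.2 and 26.8 FPKM, the 10 µg/ml libraries at 23.5, 24.2 and 22.2, the 50 µg/ml libraries at 23.2, 20.9 and 21.1 and the 100 µg/ml libraries at 22.7, 22.8 and 23.0, with 23.0 to 26.4 at 1 and 2.5 µg/ml. The 10, 50 and 100 µg/ml libraries overlapped one another and lay below all controls. The fold was -0.23 at 50 µg/ml (SE 0.0503, adjusted p = 0.01) and -0.16 at 100 µg/ml (adjusted p = 0.0425). The call at 100 µg/ml was lost in 12 of 28 settings, with adjusted p up to 0.166, and that at 50 µg/ml without replicate 3 of 0 µg/ml (adjusted p = 0.0568) or of 50 µg/ml (adjusted p = 0.052). FAM228B, its overlapping neighbour from the other strand, also fell, with 0.83 ± 0.03 FPKM in controls and 0.45 ± 0.06 at the top dose (fold -0.49, SE 0.155, adjusted p = 0.0422). Reads shared between them cannot be told apart.

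Of the 12 tested p53 targets linked to death, 6 were called up and 1 down at 100 µg/ml (all genes: 7.94% up and 7.51% down), with a median fold of 0.14. Without the 4 described above, 3 of 8 were called up: TNFRSF10D, PMAIP1 (NOXA), a BH3-only protein (3.07 ± 0.34 to 3.91 ± 0.25 FPKM, fold 0.31, adjusted p = 0.00893), and PERP, a membrane protein (fold 0.21, adjusted p = 0.0109). PMAIP1 lost its call in 1 setting and PERP in 3. BBC3 (PUMA), a potent BH3-only killer and classical p53 target, was at 2.18 ± 0.29 and 2.43 ± 0.27 FPKM (fold 0.13, adjusted p = 0.493). Of the 12 folds 9 were above 0 and 3 below, with APAF1 (-0.12, adjusted p = 0.472) among the latter. In the wider BCL2 and caspase list 4 of 22 were called up and 2 down, where 7.94% and 7.51% of all genes were, with a median of 0.02. Up were PMAIP1 and BAX but also the survival factor BCL2L1 (fold 0.18, adjusted p = 0.0172, lost in 3 settings), which overlaps ABALON on the opposite strand, and the mitochondrial channel VDAC2 (fold 0.11, adjusted p = 0.0316, lost in 8). Down were BOK, a relative of BAX (fold -0.16, adjusted p = 0.0022), and CASP9, the caspase of the mitochondrial pathway (fold -0.37, adjusted p = 0.0105, lost in 1).

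GDF15 (chromosome 19, 18386158 to 18389176, plus strand), a secreted stress hormone, was not called at any dose. There were 71 to 243 reads per library. Controls were at 4.30, 4.20 and 4.48 FPKM, the 10 µg/ml libraries at 4.90, 4.29 and 3.05, the 50 µg/ml libraries at 4.46, 4.53 and 3.99 and the 100 µg/ml libraries at 5.21, 5.42 and 4.25, with 3.78 to 4.40 at 1 and 2.5 µg/ml. The lowest library at 100 µg/ml was inside the control range. The fold at 100 µg/ml was 0.17 (SE 0.116, 95% interval -0.07 to 0.42, adjusted p = 0.371), and it was not called in any of the 28 settings. The genes of its receptor, GFRAL and RET, were not among the listed symbols.

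GDF15 and several other p53 targets are also driven by ATF4 and CHOP (DDIT3), factors of the integrated stress response. Of 9 tested genes of that list 5 were called up at 100 µg/ml and 0 down (all genes: 7.94% up and 7.51% down), with a median fold of 0.11. SLC7A11, the cystine transporter, rose from 1.36 ± 0.05 to 9.15 ± 0.66 FPKM (fold 2.38, adjusted p = 2.31e-13), PPP1R15A (GADD34) from 44.4 ± 1.2 to 66.9 ± 4.7 FPKM (fold 0.58, adjusted p = 1e-06) and TRIB3 from 10.5 ± 0.63 to 14.5 ± 0.28 FPKM (fold 0.45, adjusted p = 1.07e-05). ATF4 (fold 0.11, adjusted p = 0.00752) and DDIT3 (fold 0.20, adjusted p = 0.02, lost in 3 settings) rose less, and DDIT3 overlaps MBD6 on the opposite strand. Of the 9 folds 6 were above 0 and 3 below. Those below, not called, were DDIT4 (-0.17, adjusted p = 0.063), CHAC1 (-0.05, adjusted p = 0.824) and ATF3 (-0.03, adjusted p = 0.888). The part of ATF4 and CHOP in the p53 targets was not tested.

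Of 18 tested p53 targets in DNA repair, metabolism and growth signalling, 3 were called up and 1 down at 100 µg/ml, where 7.94% and 7.51% of all genes were, with a median fold of 0.06. KITLG, the ligand of the receptor KIT, rose from 1.204 ± 0.108 to 1.73 ± 0.07 FPKM (fold 0.39, adjusted p = 0.00186) and SESN1, an inhibitor of mTORC1 signalling, from 0.92 ± 0.05 to 1.17 ± 0.11 FPKM (fold 0.23, adjusted p = 0.0374, lost in 6 settings). The third was TNFRSF10B, which this list also holds. ALDH4A1, a mitochondrial enzyme of proline breakdown, fell by 0.20 on the log2 scale (adjusted p = 0.00241). TIGAR, which lowers glycolytic flux, had a fold of 0.13 (adjusted p = 0.0773). Of the 18 folds 11 were above 0 and 7 below. Among the latter were XPC (-0.16, adjusted p = 0.0943), which overlaps LSM3 on the opposite strand, and DDB2 (-0.07, adjusted p = 0.51).

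p21 represses cell cycle genes through the DREAM complex, and 28 genes known to be lowered in this way were all tested. At 100 µg/ml 0 were called up and 12 down (all genes: 7.94% up and 7.51% down), with 26 below 0 and a median fold of -0.09. Some of the 12 calls were lost in other settings, in up to 8 of 28. Those of MCM7, KIF20A, UHRF1 and LIG1 held in all 28. At 50 µg/ml 2 were called down and 0 up, with a median of -0.03. MCM7, a subunit of the replicative helicase, fell from 176.8 ± 4.6 to 117.7 ± 3.6 FPKM (fold -0.59, adjusted p = 1.6e-09). KIF20A, a kinesin of cytokinesis, fell from 92.0 ± 1.9 to 76.2 ± 0.50 FPKM (fold -0.27, adjusted p = 8.9e-06). UHRF1, which maintains DNA methylation, had a fold of -0.19 (adjusted p = 0.00104) and LIG1, the replicative DNA ligase, one of -0.25 (adjusted p = 0.00134). Among genes of the list that did not pass, CDK1 had a fold of -0.01 (adjusted p = 0.865), PLK1 of -0.02 (adjusted p = 0.782) and FOXM1 of -0.01 (adjusted p = 0.936). MCM7 overlaps AP4M1, and KIF20A overlaps BRD8 and CDC23, on the opposite strand. The part of p21 and DREAM in the levels of these 28 genes was not tested.

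**Figure D4:**
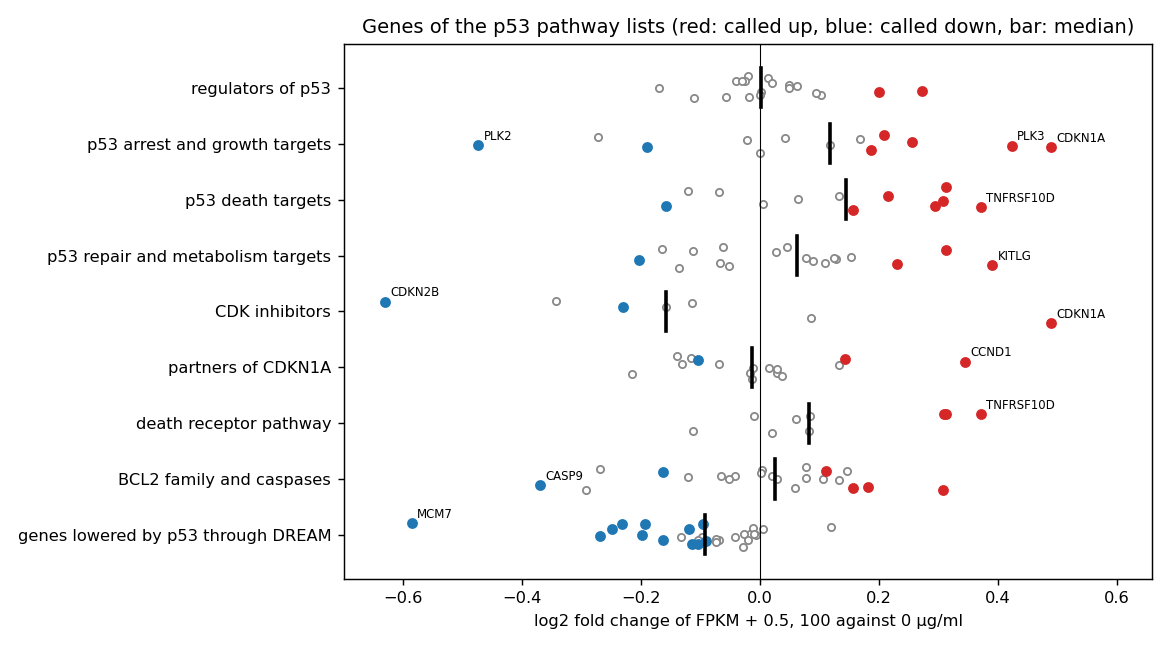
Log2 fold change of FPKM + 0.5 at 100 against 0 µg/ml (horizontal axis) for the tested genes of 9 p53 pathway lists (rows, points spread vertically for legibility); red points were called up, blue called down, grey open points not called, and the black bar is the list median. The CDK inhibitors have CDKN1A alone on the called upper side, and the list of genes known to be lowered through DREAM has 12 called down and 0 up.

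The steps between the higher doses were tested directly. From 10 to 50 µg/ml 2 of the 8 targets were called (background 2.61%): AEN up (fold 0.21, SE 0.046, adjusted p = 0.0226) and PLK2 down (fold -0.24, SE 0.0344, adjusted p = 0.000962). The AEN call was lost in 5 of 28 settings, with adjusted p up to 0.122. CDKN1A had a fold of 0.21 in this step (adjusted p = 0.0576) and was called in 4 of 28 settings. From 50 to 100 µg/ml limma called 0 of the 8 (background 0.28%), with 4 at an unadjusted p under 0.05 (8.33% of all genes), while limma-voom called CDKN1A and PLK2. The folds of that step were 0.24 for CDKN1A (SE 0.0562, adjusted p = 0.12), -0.17 for PLK2 (SE 0.0344, adjusted p = 0.0501) and 0.18 for BAX (SE 0.0416, adjusted p = 0.0949). PLK2 was called in 12 of 28 settings, CDKN1A in 3 and BAX in 1.

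A slope on log2(dose + 1) over all 18 libraries was called for 6 of the 8 targets, where 25.6% of all genes were called. It was steepest for PLK2 at -0.07 and CDKN1A at 0.06 per unit of log2(dose + 1), with AEN at 0.05, TNFRSF10B at 0.05, MDM2 at 0.04 and TP53I3 at -0.03. BAX (0.01, adjusted p = 0.149) and GDF15 (0.03, adjusted p = 0.201) were not called.

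Over the 18 libraries the genes most like CDKN1A, by Pearson correlation of log2(FPKM + 0.5) among 10484 genes of at least 1 FPKM on average, were STC2 (r = 0.955), SLC3A2 (0.953), MAP2K3 (0.948), ANKRD1 (0.948) and FTL (0.947). All 5 rose at 100 µg/ml, FTL, the ferritin light chain, from 2058 ± 74 to 3858 ± 177 FPKM and SLC3A2, the heavy chain that partners SLC7A11, from 88.7 ± 1.9 to 128.9 ± 1.2 FPKM. Among the p53 targets r with CDKN1A was 0.783 for FAS, 0.772 for AEN, 0.761 for TNFRSF10B, 0.749 for MDM2, 0.638 for GDF15 and 0.630 for BAX, and it was -0.943 for PLK2 and -0.403 for TP53I3. These correlations share the same libraries and doses and are a description only.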

How the data were processed

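Poly-A RNA of 18 libraries was sequenced as paired ends. The deposited table holds FPKM values made by the authors. HISAT2 2.0.5, DESeq2, featureCounts and hg38 are named, per the submitters' processing notes, without their roles, and the strand setting and annotation are not given in the sources used here. Whole reads were recovered from the FPKM steps for 100.0% of the 13992 genes (within 0.05 of a whole number). The 12127 genes reaching 0.5 FPKM in 3 or more libraries were fitted on log2(FPKM + 0.5), which understates changes of low genes, in limma 3.58.1 (R 4.3.3) with a variance trend, 1 mean per dose and 12 residual degrees of freedom. The fit was also run on simulated reads with the same extra spread for every gene, no library effects and changed genes only at 100 µg/ml. Its outcome is not reported here, and it does not measure false calls in these libraries. Recovered reads entered only 1 alternative, limma-voom. Replicate libraries differed by more than sampling noise (chi-square per degree of freedom 1.96 to 7.51). The labels give 1 batch value. Genes and lists, from textbook knowledge, were chosen with earlier results of these data known. Named are the 9 targets, up to 4 called genes per list and direction by smallest adjusted p, up to 3 uncalled ones, and the 5 genes most like CDKN1A. In the family of CDK inhibitors all 7 are named, the fourth uncalled one after its value was seen. So were the further called arrest and ATF4 genes, some uncalled genes of the target, death receptor and ATF4 lists, and some markers. Some genes of the lists are not reported here. Alternatives were pseudocounts, filters, scalings, the variance model, 2 doses only, a replicate block, limma-voom and leaving out each library. Positions are from GENCODE v29 and RefSeq GRCh38.p14 (hg38).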

Additional observations from a re-analysis of the deposited data

How the results depend on the processing

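Each test was recomputed in up to 28 settings (27 for the slope), 18 of which left out 1 library. Among the tested targets and the 5 genes most like CDKN1A, 0 reversed a called direction. For the other named genes only changes of call were counted, and the ratio and the correlations were not recomputed. Over comparisons, other scalings and limma-voom the median fold of all genes was -0.0137 to 0.0181, both ends from limma-voom. Against 0 µg/ml, 10 µg/ml called 5 genes as reported, 2 with no filter on low values, 1 with median of ratios scaling, 1 with upper quartile scaling, 1 with no variance trend, 1 with only the 2 doses compared and 9 with the replicate block; 1 µg/ml called 0, and 1 with only the 2 doses compared. From 10 to 50 µg/ml 317 genes and 2 targets were called, and 86 and 1 with only the 2 doses compared. From 50 to 100 µg/ml 0 targets were called, but 1 with a filter at 1 FPKM in 3 libraries, 1 with median of ratios scaling, 1 with upper quartile scaling, 1 with only the 2 doses compared, 1 with the replicate block and 2 with limma-voom. The cause of these shifts was not tested. Limma-voom called 1221 genes and 6 targets at 50 and 2004 and 7 at 100 µg/ml, against 906 and 6, and 1874 and 7.

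Leaving out 1 library gave 0 to 6 genes called at 10 µg/ml, 458 to 1027 at 50 and 1203 to 2011 at 100 µg/ml, 79 to 727 from 10 to 50, 24 to 42 from 50 to 100, and 2448 to 3190 for the slope (3109 as reported). For targets the ranges were 3 to 6 at 50, 5 to 7 at 100, 1 to 3 from 10 to 50, 0 to 1 from 50 to 100 and 6 to 7 for the slope. The count of 3 targets at 50 µg/ml came without replicate 3 of 0 µg/ml and without replicate 3 of 50 µg/ml.

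Deviations of same-numbered libraries correlated with a median r of 0.011 (-0.333 to 0.245 over 45 pairs). For libraries of other numbers it was -0.006 (-0.236 to 0.253 over 90 pairs), and 5 of 18 libraries were nearest to their own number. These values show no shared shift by replicate number, but cannot tell whether the libraries were prepared in matched sets. With the replicate block 961 genes were called at 50 and 1921 at 100 µg/ml, and the targets called stayed at 6 and 7. FAS and GDF15 had the fewest reads of the 9 targets, 70 to 244 and 71 to 243 per library; the part of depth in their results was not tested.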
